A study of Mus musculus with 4 samples.

Results

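The 8 transcription factors that set intestinal identity and position along the gut, namely Pdx1, Cdx1, Cdx2, Hnf4a, Hnf4g, Gata4, Gata6 and Onecut2, were examined in sorted intestinal stem cells of mice with intact or floxed CREPT alleles. The members were chosen by gene symbol, and all 8 were found among the 18436 genes of the deposited table and among the 12621 genes that passed the filter on low values. CREPT, encoded by Rprd1b, is a regulator of RNA polymerase II transcription. Crypt cells were sorted for bright GFP (Lgr5-GFPhigh) from 2 Lgr5-CREPTWT mice (Lgr5-GFP; Lgr5 in the sample labels) and 2 Lgr5-CREPTKO mice (Lgr5-GFP; CREPT fl/fl; Lgr5KO in the sample labels), all C57BL/6. By the study's methods, mice of both sexes at 6 to 8 weeks of age were used, and all 4 carried GFP and a tamoxifen-inducible Cre at the Lgr5 gene. Tamoxifen (1 mg daily over 5 days) was given to both genotypes before the sort on day 7, so the WT group carried the Cre and received the drug too. Cre and GFP are driven from Lgr5, so the deletion was made in Lgr5-expressing cells, and the sort kept only cells that still had high GFP on that day. The allele is mosaic, with some crypts that do not express GFP.

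CDX1 and CDX2 are homeodomain factors that keep the epithelium intestinal rather than gastric, and CDX2 is the main intestinal determinant. HNF4A and HNF4G are paralogous nuclear receptors that drive enterocyte and lipid transport genes. GATA4 and GATA6 are zinc finger factors of the foregut and midgut, and GATA4 marks duodenum and jejunum rather than ileum. PDX1 is a homeodomain factor of the pancreas, the gastric antrum and the duodenum, where it also acts in enteroendocrine cells. ONECUT2 is a cut homeodomain factor enriched in the proximal small intestine.

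None of the 8 factors passed an adjusted p of 0.05 (0 of 8 by limma's moderated test on log2(FPKM + 0.5), Benjamini-Hochberg adjusted over all 12621 genes). In the same test 2.67% of all genes were lower and 0.412% were higher in Lgr5-CREPTKO cells. Before adjustment, limma's p was under 0.05 for Pdx1, which was lower, and for Hnf4a, which was higher. Of all 12621 genes tested, 1916 were lower and 1170 were higher at the same unadjusted threshold. The median log2 fold change of the 8 was 0.12, beside -0.01 for all genes tested. Pdx1 stood farthest from its WT level, at 63.8% of the WT mean, and each of the other factors had a fold change of FPKM means between 0.947 and 1.16. FPKM (sequenced fragments per length of transcript and per size of library) divides by transcript length, so levels can be set side by side between genes, but each value is relative to the rest of its library. Log2 fold changes are Lgr5-CREPTKO minus Lgr5-CREPTWT on the log2(FPKM + 0.5) scale, which understates changes at low values.

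As a check of the labels, Rprd1b was 17.7 and 18.1 FPKM in the Lgr5-CREPTWT mice and 6.65 and 7.36 FPKM in the Lgr5-CREPTKO mice (log2 fold change -1.29, standard error 0.0946, limma adjusted p = 0.0280). Part of the signal thus remained in the CREPTKO mice, and FPKM per gene also takes in any transcript that lacks only the floxed exon. The gate was checked with 12 stem cell markers, all of which were measured above the filter. Lgr5 was 47.7 and 37.7 FPKM in WT mice and 52.0 and 60.1 FPKM in CREPTKO mice, and Olfm4 was between 4932 and 5351 FPKM in all 4. None of the 12 stem cell markers passed (0 lower and 0 higher by limma). Before adjustment 5 of the 12 were higher, beside 1170 of all 12621 genes tested. Their log2 fold changes were above 0 for 11 of 12, with a median of 0.15, and 10 of 12 had both CREPTKO values above both WT values, beside 25.6% of all genes tested. Summed markers of some other cell types differed between genotypes. Over the markers in the table, enteroendocrine markers were 265 and 378 FPKM in WT and 86.1 and 98.0 FPKM in CREPTKO mice. Goblet markers were 1480 and 2470 against 814 and 944 FPKM. Paneth, enterocyte and immune sums overlapped between genotypes. FPKM summed to between 468830 and 499327 per mouse, with both CREPTKO totals below both WT totals. Across genes, which are not replicates, log2 values correlated at 0.983 between WT mice and 0.977 between CREPTKO mice. Absolute depth is unknown. The smallest p that exact permutation allows with 2 mice in each genotype is 0.333, so significance depends on the error that limma borrows from all genes.

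The levels of the 8 factors fell in the same order in 4 of 4 mice, which was Hnf4a, Cdx1, Cdx2, Gata4, Gata6, Hnf4g, Onecut2 and Pdx1 from highest to lowest. No pair of neighbours in this order had overlapping ranges over the 4 mice. The closest pair was Gata4, whose lowest value was 50.4 FPKM, and Gata6, whose highest was 48.7 FPKM, and within a mouse the former was 1.12 to 1.26 times the latter. The highest ratio between neighbours was that of Onecut2 to Pdx1, at 1.83 to 3.95. The WT mice differed least for Onecut2, by 2.68%, and the CREPTKO mice least for Cdx2, by 0.02%. The widest gap within a genotype was that of Pdx1 in CREPTKO mice (38.0%, against 3.23% in WT mice). For Cdx1 and Cdx2 the wider gap was between the WT mice, at 22.0% and 20.3%.

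**Figure D1:**
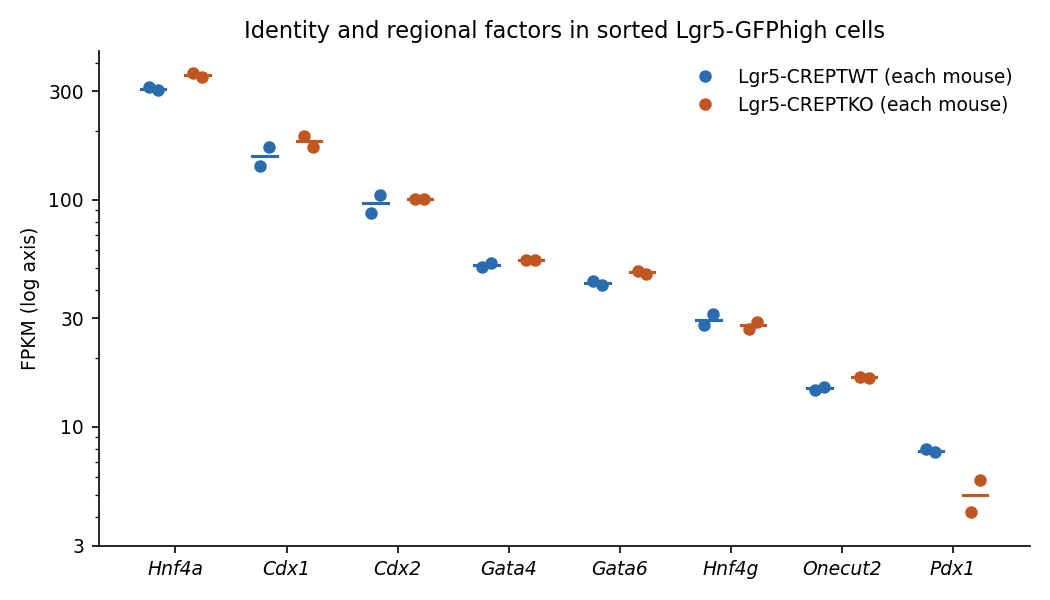
FPKM (log axis) of the 8 factors in sorted Lgr5-GFPhigh cells, with a point for each mouse, blue for Lgr5-CREPTWT and orange for Lgr5-CREPTKO, and a bar at the mean of 2 mice. The order of the genes is the same in all 4 mice, and Pdx1 is the factor whose CREPTKO points (4.21 and 5.81 FPKM) both lie below its WT points (7.98 and 7.73 FPKM).

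Hnf4a was the most abundant of the 8 factors. It was measured at 312 and 304 FPKM in WT mice and at 362 and 347 FPKM in CREPTKO mice, that is 308 ± 6.06 and 354 ± 10.7 FPKM (SD, n = 2). Both CREPTKO mice lay above both WT mice, as did 25.6% of all genes tested. The log2 fold change was 0.20 (standard error 0.069, 95% interval 0.02 to 0.38) with an adjusted p of 0.166 by limma, against an unadjusted 0.0333. The interval corresponds to a change of 1.02 to 1.30 times. Hnf4g, its paralog, was 28.0 and 31.2 FPKM in WT mice and 27.1 and 29.1 FPKM in CREPTKO mice, and the genotypes overlapped. Its log2 fold change was -0.08 (95% interval -0.31 to 0.16, limma adjusted p = 0.654), an interval of 0.807 to 1.11 times. Hnf4g made up 8.24% and 9.33% of the summed FPKM of the pair in WT mice and 6.96% and 7.74% in CREPTKO mice. The ratio of Hnf4a to Hnf4g within a mouse, which no library scaling can alter, was 11.1 and 9.72 in WT and 13.4 and 11.9 in CREPTKO mice. The log2 ratio was thus higher by 0.28 without overlap, at the smallest p the exact permutation test allows (0.333, two-sided).

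In GRCm38.p6, the Hnf4a gene spans 163506811 to 163572907 of chromosome 2 and the Hnf4g gene 3508030 to 3659800 of chromosome 3. Hnf4a has an upstream and a downstream start, whose RefSeq windows lie 40298 bases apart, and FPKM per gene does not separate them. Both windows are printed because Hnf4a carried the highest level of the 8, each with 250 bases before and 50 bases after the start, 5′ to 3′ on the strand of the gene. Capitals mark matches to any of 4 motifs searched on both strands. These were AGATAA for GATA factors, CACGTG for E-box proteins, TTTATG for CDX factors and AGGTCA for HNF4. No matched stretches overlapped.
Hnf4a upstream start, chr2:163506607-163506906, plus strand: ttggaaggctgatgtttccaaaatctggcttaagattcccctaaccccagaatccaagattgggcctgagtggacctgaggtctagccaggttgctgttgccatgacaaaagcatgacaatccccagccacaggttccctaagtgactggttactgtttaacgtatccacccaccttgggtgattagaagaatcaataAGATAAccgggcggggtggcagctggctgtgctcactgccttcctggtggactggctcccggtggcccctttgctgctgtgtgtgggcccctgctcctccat
Hnf4a downstream start, chr2:163546905-163547204, plus strand: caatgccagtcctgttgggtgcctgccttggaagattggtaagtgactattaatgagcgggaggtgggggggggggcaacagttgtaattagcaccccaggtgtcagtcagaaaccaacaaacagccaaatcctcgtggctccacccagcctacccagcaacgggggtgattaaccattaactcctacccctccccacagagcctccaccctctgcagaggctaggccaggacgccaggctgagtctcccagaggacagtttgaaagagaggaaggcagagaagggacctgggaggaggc
The upstream window held AGATAA 52 bases before the start, a motif present in 11.2% of 32851 RefSeq promoter windows of the same length. The downstream window held none of the 4 motifs. A match describes the letters only.

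Genes known as HNF4 targets in enterocytes were taken from textbook knowledge. Of 15 tested, 1 was lower and 0 were higher, beside 2.67% and 0.412% of all genes tested. Their median log2 fold change was 0.04. The gene that fell was Ttr, transthyretin, a carrier of thyroid hormone and retinol-binding protein. It was 23.7 and 18.7 FPKM in WT mice and 9.97 and 10.1 FPKM in CREPTKO mice (log2 fold change -1.03, limma adjusted p = 0.0376). Ttr is also abundant in some endocrine cells, and the enteroendocrine markers moved in the same direction, as their sums above show; their part in the result was not tested. Vil1, which encodes the microvillus protein villin and was the most abundant on the list, was 171 and 182 FPKM in WT mice and 87.1 and 119 FPKM in CREPTKO mice, without overlap but with a limma adjusted p of 0.0689. Myo1a, the brush border myosin, had the opposite sign at a log2 fold change of 0.36 (limma adjusted p = 0.0657).

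Pdx1 and Cdx2 are neighbours in the ParaHox cluster on chromosome 5. In GRCm38.p6, Pdx1 spans 147270097 to 147275848 on the plus strand and Cdx2 spans 147300900 to 147307249 on the minus strand, with 25051 bases between them. Their RefSeq start windows are printed here, with the same motifs in capitals, because the adjacent genes gave unlike values. Neither gene passed, and whether their responses differ was not tested.
Pdx1, chr5:147269847-147270146, plus strand: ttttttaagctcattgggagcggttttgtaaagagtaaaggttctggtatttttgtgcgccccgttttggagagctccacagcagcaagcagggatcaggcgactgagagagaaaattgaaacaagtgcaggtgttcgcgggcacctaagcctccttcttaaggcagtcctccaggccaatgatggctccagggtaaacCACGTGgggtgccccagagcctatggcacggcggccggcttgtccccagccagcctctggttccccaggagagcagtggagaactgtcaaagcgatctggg
Cdx2, chr5:147307200-147307499, minus strand: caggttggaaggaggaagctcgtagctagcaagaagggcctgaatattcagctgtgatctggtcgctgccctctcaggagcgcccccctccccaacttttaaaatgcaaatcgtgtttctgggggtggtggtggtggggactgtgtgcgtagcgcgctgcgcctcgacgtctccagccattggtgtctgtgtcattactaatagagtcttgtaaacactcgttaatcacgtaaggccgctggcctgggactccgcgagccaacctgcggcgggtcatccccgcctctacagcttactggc
The Pdx1 window held the E-box CACGTG 51 bases before the start (7.15% of all windows), and the Cdx2 window held none of the 4 motifs. TTTATG, present in 11.9% of all windows, and AGGTCA, present in 16.3%, matched 0 of the 4 windows printed.

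Pdx1 was the lowest of the 8 factors. It was 7.98 and 7.73 FPKM in WT mice and 4.21 and 5.81 FPKM in CREPTKO mice, or 7.86 ± 0.177 and 5.01 ± 1.13 FPKM (SD, n = 2). Both CREPTKO values lay below both WT values, as did those of 31.0% of all genes tested, and 1 of 8 factors did so. The log2 fold change was -0.62 (standard error 0.167, 95% interval -1.04 to -0.19), with an unadjusted p of 0.0142 and an adjusted p of 0.114 by limma, so the difference did not pass. The interval corresponds to 0.485 to 0.879 times the WT level. Among the genes tested Pdx1 ranked at the 39.2 and 38.6 percentiles in WT mice and at 26.5 and 32.2 in CREPTKO mice. The study names Pdx1 among lineage genes on these samples, so its direction here is not independent evidence.

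Cdx2, next to Pdx1, was 87.5 and 105 FPKM in WT mice and 100.2 FPKM in each CREPTKO mouse, and the CREPTKO values fell between the WT values. Its log2 fold change was 0.06 (95% interval -0.21 to 0.33, limma adjusted p = 0.762). The gene on the other side of Cdx2, Urad, which encodes an enzyme of uric acid breakdown and was chosen by position, was 3.08 and 2.68 FPKM in WT mice and 1.63 and 2.22 FPKM in CREPTKO mice. Its log2 fold change was -0.49 (95% interval -0.97 to 0.00, limma adjusted p = 0.203). A difference in response between Pdx1 and Cdx2 was not tested.

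Pdx1 was set beside enteroendocrine markers because it is known to act in that lineage. Of 18 enteroendocrine markers tested, 6 fell and 0 rose, beside 2.67% and 0.412% of all genes tested. Their median log2 fold change was -1.37. The 6 that fell were Neurod1 and Pax4, factors of the lineage, Chgb, a granin of secretory granules, and the peptide hormone genes Cck, Ghrl and Tac1. Ghrl, which encodes ghrelin, was 35.6 and 47.9 FPKM in WT mice and 2.99 and 3.40 FPKM in CREPTKO mice (log2 fold change -3.50, limma adjusted p = 0.0187). Neurog3, the factor that specifies the lineage, was 16.6 and 25.1 FPKM in WT mice and 10.1 and 6.83 FPKM in CREPTKO mice, with a limma adjusted p of 0.0731. Some of these markers were named by the study from these samples, so the count is not independent evidence of direction. In bulk RNA from sorted cells, fewer cells of a type and less RNA per cell cannot be told apart. The part of enteroendocrine cells in the Pdx1 value was not tested. Markers of the pancreas, the organ in which PDX1 is best known, were nearly absent. Of 10 listed, 4 were in the table and only Bhlha15, which secretory cells in general use, passed the filter, and the list summed to between 1.40 and 2.42 FPKM.

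**Figure D2:**
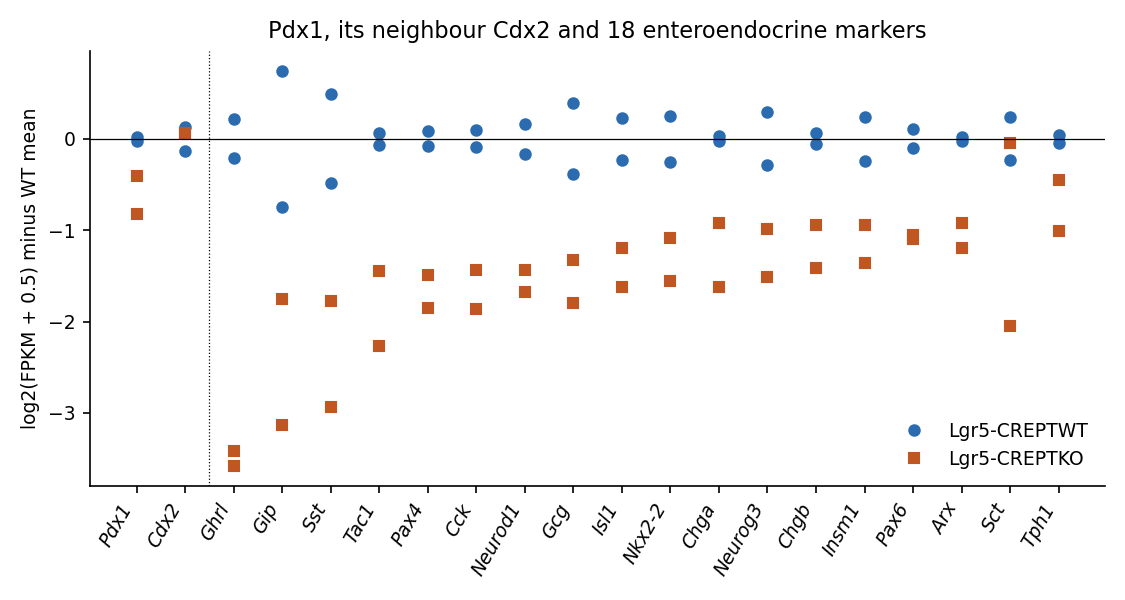
log2(FPKM + 0.5) of Pdx1, its neighbour Cdx2 and 18 enteroendocrine markers, each minus its mean over the 2 Lgr5-CREPTWT mice, with blue circles for WT and orange squares for CREPTKO mice. Pdx1 lies below 0 in both CREPTKO mice, and Cdx2 lies near 0. Of the 18 markers, 17 have both CREPTKO squares below both WT circles, beside 31.0% of all genes tested.

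Cdx1 was 140 and 171 FPKM in WT mice and 191 and 170 FPKM in CREPTKO mice, that is 156 ± 21.8 and 180 ± 14.9 FPKM (SD, n = 2). The genotypes overlapped, since the lower CREPTKO mouse lay just under the higher WT mouse. The log2 fold change was 0.22 (standard error 0.122, 95% interval -0.10 to 0.53, limma adjusted p = 0.342), which allows 0.935 to 1.45 times the WT level. The corresponding interval of Cdx2 was 0.866 to 1.26 times. Summed over both genes, CDX transcripts were 228 and 276 FPKM in WT mice and 291 and 270 FPKM in CREPTKO mice, and Cdx1 made up 61.6% to 65.6% of the sum in each mouse. The ratio of Cdx1 to Cdx2 was 1.60 and 1.63 in WT mice and 1.91 and 1.70 in CREPTKO mice (log2 difference 0.16, exact permutation p = 0.333, two-sided). Cdx1 is on chromosome 18 from 61018862 to 61036199.

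Of 10 genes known as CDX2 targets, 0 passed in either direction by limma, and the median log2 fold change was -0.08. Before adjustment, 2 of them were lower and 1 was higher, beside 1916 lower and 1170 higher of all 12621 genes tested. The most abundant was Lgals4, an epithelial galectin. Lgals4 was 1017 and 1041 FPKM in WT mice and 864 and 856 FPKM in CREPTKO mice (log2 fold change -0.26, limma adjusted p = 0.122), without overlap. The other gene that was lower before adjustment was the goblet mucin Muc2, which is also on the goblet list; 1 of 10 goblet markers, Spink4, fell (log2 fold change -1.30, limma adjusted p = 0.0333). The gene that was higher before adjustment was Mep1a, a brush border metalloprotease, at 10.2 and 6.60 FPKM in WT mice and 12.5 and 13.3 FPKM in CREPTKO mice (log2 fold change 0.62, limma adjusted p = 0.156). Cdh17, the liver-intestine cadherin, was 197 and 195 FPKM in WT mice and 220 and 219 FPKM in CREPTKO mice (log2 fold change 0.16, limma adjusted p = 0.208). Loss of CDX2 is known to bring out gastric genes, and of 17 such genes listed, 13 were in the table and 2 passed the filter. Pgc, the precursor of pepsin C, was the highest at 15.9 and 13.5 FPKM in WT mice and 12.0 and 8.65 FPKM in CREPTKO mice (limma adjusted p = 0.177). Tff2, a trefoil peptide, was 0.10 and 0 FPKM in WT mice and 0.20 and 2.39 FPKM in CREPTKO mice (limma adjusted p = 0.302). It passed the filter only through 1 CREPTKO mouse.

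Gata4 was 50.4 and 52.7 FPKM in WT mice and 54.3 and 54.4 FPKM in CREPTKO mice, or 51.6 ± 1.61 and 54.4 ± 0.0919 FPKM (SD, n = 2). Both CREPTKO mice were above both WT mice, and the log2 fold change was 0.08 (95% interval -0.10 to 0.25, limma adjusted p = 0.542). Gata6 was 44.0 and 42.0 FPKM in WT mice and 48.7 and 47.2 FPKM in CREPTKO mice, again without overlap. Its log2 fold change was 0.16 (95% interval -0.03 to 0.34, limma adjusted p = 0.255). These intervals allow 0.934 to 1.19 times the WT level for Gata4 and 0.982 to 1.26 times for Gata6. Gata5, the other GATA factor of the gut and not a member, had the opposite sign. It was 24.2 and 27.9 FPKM in WT mice and 21.0 and 20.8 FPKM in CREPTKO mice (log2 fold change -0.31, 95% interval -0.55 to -0.06, limma adjusted p = 0.142). Gata2 and Gata3 were at or below 0.02 FPKM in every mouse. The summed FPKM of Gata4, Gata5 and Gata6 was 119 and 123 in WT mice and 124 and 122 in CREPTKO mice, while the share of Gata5 was 20.4% and 22.8% in WT mice and 17.0% in each CREPTKO mouse. The ratio of Gata4 to Gata6 ranged from 1.12 to 1.26 over the 4 mice (exact permutation p = 0.667, two-sided). Gata4 is on chromosome 14 from 63198914 to 63271712 and Gata6 on chromosome 18 from 11052510 to 11085636.

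**Figure D3:**
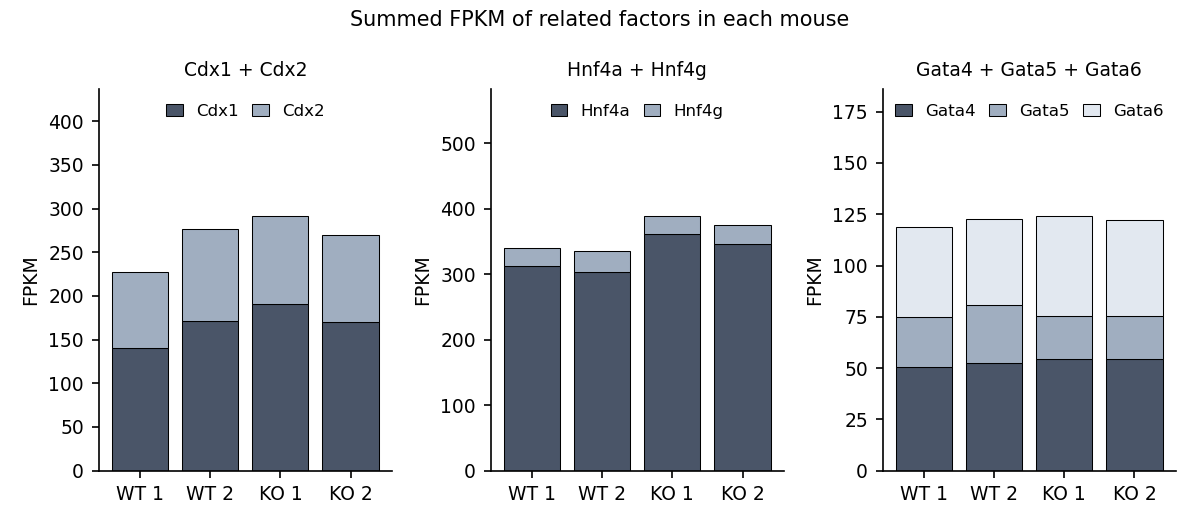
Summed FPKM of related factors in each mouse (stacked bars from 0), with WT 1 and WT 2 for Lgr5-CREPTWT and KO 1 and KO 2 for Lgr5-CREPTKO mice. Hnf4a fills most of the HNF4 bars (90.7% to 93.0%), and the GATA bars keep a similar height (119 to 124 FPKM) while the Gata5 segment is smaller in the CREPTKO mice.

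Onecut2, which spans 64340032 to 64398488 of chromosome 18, was 14.6 and 15.0 FPKM in WT mice and 16.6 and 16.5 FPKM in CREPTKO mice. The means were 14.8 ± 0.276 and 16.5 ± 0.0990 FPKM (SD, n = 2), and the genotypes did not overlap. The log2 fold change was 0.16 (95% interval -0.04 to 0.36, limma adjusted p = 0.289), or 0.971 to 1.28 times the WT level. It was the only ONECUT gene above the filter. Onecut1 was at or below 0.03 FPKM in every mouse, and Onecut3 was 0.24 and 0.20 FPKM in WT mice and 0.09 and 0.07 FPKM in CREPTKO mice. In all, 4 of the 8 factors had both CREPTKO values above both WT values (Hnf4a, Gata4, Gata6 and Onecut2), where the share over all genes tested was 25.6%, and the remaining 3 overlapped. Of the 12 stem cell markers, 10 lay above in the same way, with a median log2 fold change of 0.15 beside 0.12 for the 8 factors. The part of stem cell content in the members' values was not tested.

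Partner factors that act beside these 8 in the gut were tested in the same fit. Of 19 tested, 0 passed in either direction, and the median log2 fold change was 0.00. By limma before adjustment, 3 were lower and 4 higher, beside 1916 lower and 1170 higher of all 12621 genes tested. Elf3, an epithelial ETS factor, was the most abundant at 368 and 400 FPKM in WT mice and 412 and 360 FPKM in CREPTKO mice (log2 fold change 0.00, 95% interval -0.25 to 0.25). Zfpm1, or FOG1, a cofactor of GATA factors, was 53.8 and 63.2 FPKM in WT mice and 81.9 and 73.4 FPKM in CREPTKO mice (log2 fold change 0.41, limma adjusted p = 0.111). Foxa3, a forkhead pioneer factor, was 16.1 and 18.5 FPKM in WT mice and 13.0 and 12.4 FPKM in CREPTKO mice (log2 fold change -0.43, limma adjusted p = 0.0899). Its relatives Foxa1 and Foxa2 had log2 fold changes of -0.25 and -0.07.

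**Figure D4:**
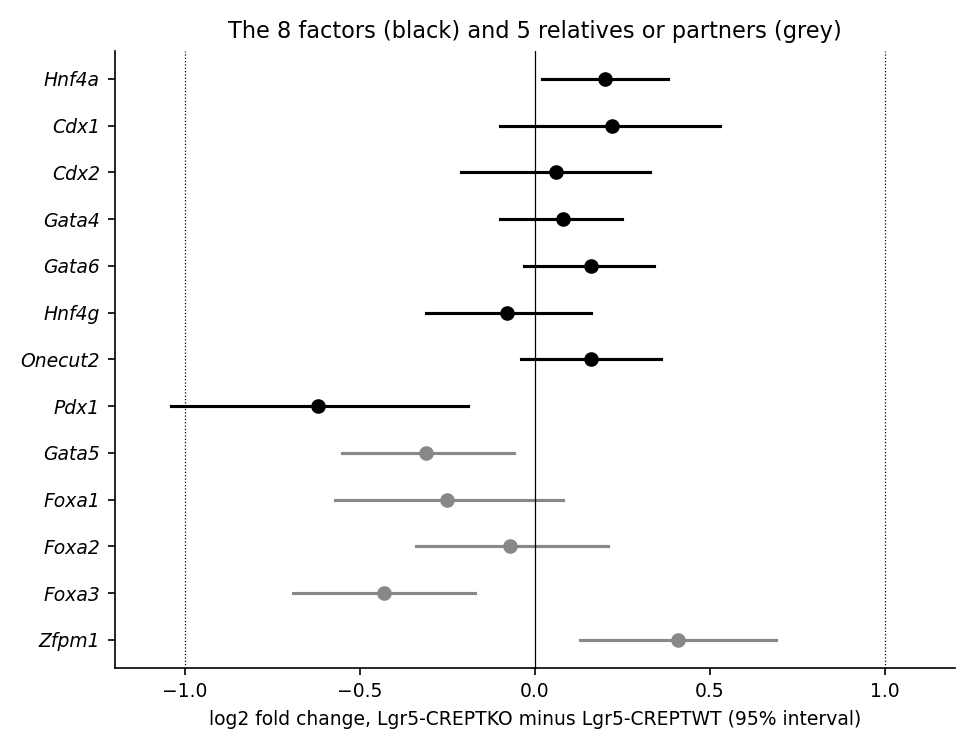
Log2 fold change (Lgr5-CREPTKO minus Lgr5-CREPTWT, point) with its 95% interval from limma (line) for the 8 factors in black and 5 relatives or partners in grey, with dotted lines at an absolute log2 fold change of 1. Of the 8 factors, the intervals of Hnf4a (0.02 to 0.38) and Pdx1 (-1.04 to -0.19) exclude 0, and no gene shown passed the adjusted test. Such an interval goes with an unadjusted p below 0.05, which 1916 lower and 1170 higher genes of 12621 reached.

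Genes that mark position along the gut were counted in the same way. Of 12 proximal genes, 10 passed the filter and 0 passed the test (median log2 fold change -0.07). Fabp1, the liver-type fatty acid-binding protein, was the highest of them in mean level, at 63.6 and 87.1 FPKM in WT mice and 60.4 and 92.7 FPKM in CREPTKO mice. Of 7 distal genes, 4 passed the filter and 0 passed the test (median 0.27). The highest was Amn, a subunit of the vitamin B12 receptor, at 16.2 and 14.7 FPKM in WT mice and 18.1 and 19.1 FPKM in CREPTKO mice. Fabp6, the ileal bile acid-binding protein, stayed at or below 0.94 FPKM in every mouse. Of 7 colon genes, 2 were in the table, 1 passed the filter and 0 passed the test. It was Retnlb, a goblet cell product of the colon, at 0.47 and 1.86 FPKM in WT mice and 0.23 and 0.24 FPKM in CREPTKO mice (limma adjusted p = 0.255). Hox genes, which pattern the body axis, were low throughout. Of 21 in the table, 4 passed the filter, 0 passed the test, and no Hox gene was above 1.47 FPKM in any mouse. Hoxb3 had the highest mean, at 0.51 and 0.39 FPKM in WT mice and 1.09 and 0.46 FPKM in CREPTKO mice.

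Of 10 enterocyte markers, 0 passed (median log2 fold change 0.04), and their sum ranged from 385 to 669 FPKM with overlap. The other marker lists gave 0 of 9 Paneth, 0 of 6 tuft and 0 of 7 immune markers past the test. Tuft sums were 23.4 and 50.7 FPKM in WT mice and 20.8 and 7.97 FPKM in CREPTKO mice. Paneth sums were 1590 and 1360 against 910 and 2760 FPKM, and immune sums were 525 and 1190 against 286 and 921 FPKM, most of it Cd74, which epithelial cells also use. Stromal markers summed to at most 4.83 FPKM. Some genes stand on more than 1 list. The part of these cells in the members' values was not tested.

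**Figure D5:**
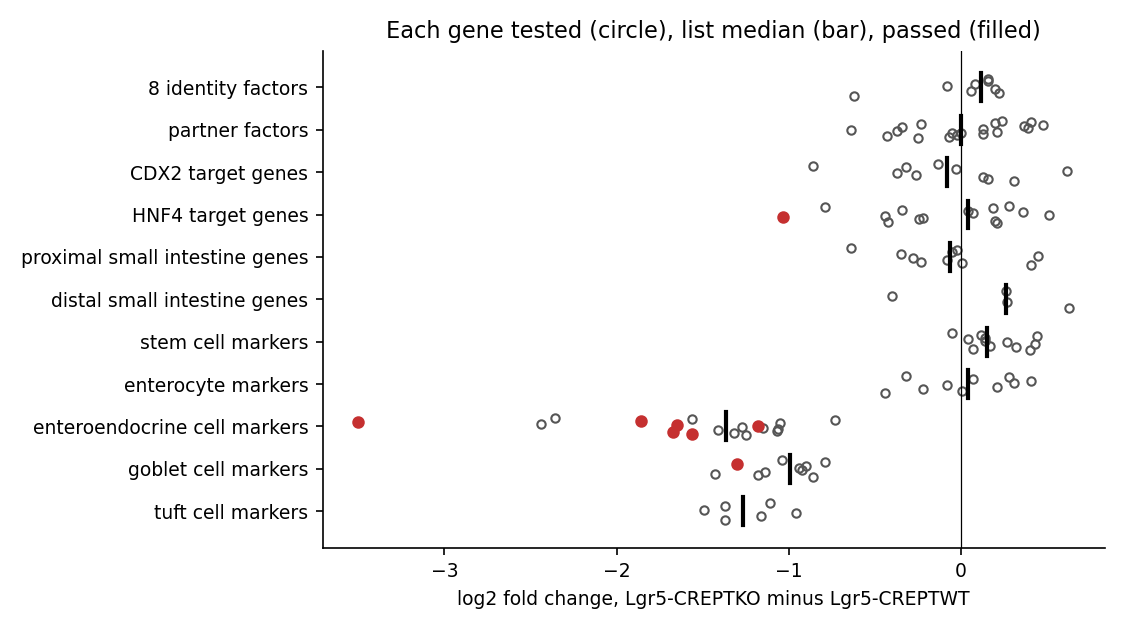
Log2 fold change (Lgr5-CREPTKO minus Lgr5-CREPTWT) of each gene tested in 11 lists, with a black bar at the median of each list and filled red circles for genes that passed limma's adjusted test. The median is 0.12 for the 8 factors, 0.15 for stem cell markers and 0.04 for enterocyte markers. It is -0.07 for proximal and 0.27 for distal genes. The enteroendocrine (median -1.37), tuft (-1.26) and goblet (-0.99) lists lie to the left.

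The profile of each factor over the 4 mice was compared with 132 listed genes by Euclidean distance of log2(FPKM + 0.5), each gene centred on its own mean. The nearest to Pdx1 were Tph1 (distance 0.175), which makes serotonin in enterochromaffin cells, and Vil1 (0.199). Hnf4a lay nearest to Gata6 (0.0504) and to the stem cell gene Smoc2 (0.0572). Gata6 lay nearest to the nuclear receptor Nr5a2 (0.0430) and to Cdh17 (0.0483), and Onecut2 to Cdh17 (0.0357) and the RNA-binding protein gene Msi1 (0.0571). Gata4 lay nearest to Msi1 (0.0564) and Olfm4 (0.0822). The profiles of Cdx1 and Cdx2 both had Smad4, a transducer of BMP signals, among their nearest, at 0.114 and 0.137, the former with Klf5 (0.148) and the latter with Tnfrsf19 (0.0869). Hnf4g lay nearest to Tnfrsf19 (0.121) and Sox9 (0.133). With 4 mice and 132 candidates, these distances describe the profiles only, and small distances go with genes that differ little between mice.

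Overlapping genes can share reads with a member when strand is not used in counting, which the sources used here do not give. Hnf4aos, antisense to Hnf4a, was at most 0.34 FPKM. Plut at Pdx1, Gm52351 at Cdx1, Gm25881 at Hnf4a and Gata6os at Gata6 were not found by symbol among the genes with values. Reads shared with them could not be examined.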

How the data were processed

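The authors deposited 1 table of FPKM values for 18436 genes in 4 libraries, 1 per mouse, rounded to 2 decimals. Per the labels, mm10, HISAT, Bowtie2 and RSEM were used, and the methods for RNA-seq, written for crypts without naming the sorted cells, give mapping to transcripts with Bowtie2 and quantification with RSEM. FPKM carries no counts, so the study's count model (adjusted p below 0.05, absolute log2 fold change above 1) could not be run. FPKM is relative to each library, so a few very abundant genes can shift all others, and a spreadsheet had rewritten 25 symbols as dates. Depth relative to WT mouse 1 was estimated at 0.967 to 1.02. The estimate used the most common value above 0 of microRNA genes at 4 lengths, which was assumed to be about 1 read.

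The filter kept 12621 genes whose mean over the 4 mice reached 0.5 FPKM. On log2(FPKM + 0.5), a limma model (version 3.58.1, R 4.3.3) was fitted with an intensity trend and no covariates, and p-values were Benjamini-Hochberg adjusted. A gene "passed" at an adjusted p below 0.05. The method was tested on simulated data. Ratios of related factors were compared by exact permutation. Promoter windows and positions are from RefSeq on GRCm38.p6, and positions were found for all 8 factors. Windows on chromosome 18, which holds Cdx1, Gata6 and Onecut2, were left out of the search. Of the other factors, 3 (Pdx1, Cdx2 and Hnf4a) had a window. Python 3.11.15 with pandas 2.3.3 and matplotlib 3.10.9 was used.

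The members and lists were chosen with earlier results of these data known, and some listed genes are not reported here. The genes named are the 8 factors, list members that passed, the most abundant of a list where fewer than 2 passed, defining cell type markers, Rprd1b, and the 2 nearest listed profiles of each factor. Beyond this rule, Urad was chosen by position, and Gata2, Gata3, the other ONECUT genes, the Foxa genes, Zfpm1, Mep1a, Myo1a, Tff2 and Fabp6 were picked with their values in view. By the study's methods the mice are separate animals. The pseudocount, filter, scaling, trend, robust fitting, replicate block and each mouse left out were varied.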

Additional observations from a re-analysis of the deposited data

How the results depend on the processing

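The count of factors past the adjusted test was 0 under each of the 14 alternatives. Over them, the log2 fold change of Pdx1 ranged from -0.83 to -0.40 (limma adjusted p 0.0919 to 0.382) and that of Hnf4a from 0.17 to 0.28 (0.105 to 0.443). Cdx1, Gata4, Gata6 and Onecut2 kept their sign as well. Hnf4g was 0 under TPM scaling, and from -0.15 to 0.00 with each Lgr5-CREPTWT mouse left out, and Cdx2 was -0.07 without Lgr5-CREPTWT mouse 1 and 0.20 without mouse 2; with differences this near 0 the sign is not fixed. The counts over all genes, 337 lower and 52 higher at an adjusted p below 0.05 and 128 lower and 16 higher with an absolute log2 fold change above 1 as well, moved more. Without the filter they were 0 in both directions (before adjustment, 2250 lower and 1320 higher). With any 1 of the 4 mice left out they were 0 too, with a smallest adjusted p between 0.144 and 0.305, where 2 mice are compared with 1 that is assumed to vary like the others. Under TPM scaling 166 were lower, 84 of them past the fold threshold, and the split before adjustment turned from 1916 lower and 1170 higher to 1492 lower and 1992 higher. Without an intensity trend 4 were lower and 0 higher, 4 and 0 with the fold threshold. Robust fitting gave 525 lower and 126 higher, and removing microRNA and small nucleolar RNA genes gave 109 higher. Same-numbered mice are different animals, and their deviations correlated at -0.0266 across genes, which are not replicates. This value cannot show whether same-numbered mice shared a batch. With a replicate block 168 were lower and 15 higher, 8 of the latter with the fold threshold, and no factor changed its call. The cause of the moved counts was not tested. Leaving out Lgr5-CREPTWT mouse 1 or 2, or Lgr5-CREPTKO mouse 1 or 2, ended the calls of Ttr, Spink4, Ghrl and the other genes that passed. With 2 mice per genotype and absolute depth unknown, the printed intervals give the sizes of change that the data allow, and no detection limit was estimated.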
